A study of Homo sapiens with 10 samples.

Results

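A set of 50 genes of mitosis and the G2/M transition was followed in U2OS, a human osteosarcoma line, across heat shock and knockdown of YTHDC1, a nuclear reader of N6-methyladenosine (m6A) in RNA. The genes are 50 of the 63187 rows of a gene count table, chosen by symbol as a list of mitotic genes, and each symbol matched 1 row. The list was chosen with earlier results of these data known. RNA-seq libraries were compared in 3 groups of 2: heat-shocked cells with YTHDC1 knockdown, heat-shocked cells with a control reagent, and unheated cells with the control reagent. All 3 groups carried a silencing reagent, and no group of unheated knockdown cells was analysed here. The reagents are called sh in some labels and si in others, and neither the temperature nor the length of heating is given in the sources used here. The groups allow 2 main questions, how heat shock changed messenger RNA in control cells and how YTHDC1 knockdown changed it in heat-shocked cells.

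Dividing cells make most mitotic messenger RNAs late in the cell cycle. The MuvB complex, with B-MYB and FOXM1, switches these genes on through a promoter element called the cell cycle genes homology region (CHR) and nearby CCAAT boxes bound by NF-Y, and the DREAM complex holds them off in resting cells. Their products then act in order: cyclin B with CDK1 starts mitosis, Polo and Aurora kinases build the spindle, the checkpoint waits for every chromosome to attach, and the anaphase-promoting complex (APC/C) destroys securin and cyclin B so that the chromosomes part.

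Total counts ran from 13252370 to 15500743 per library. Levels are CPM, the read count relative to the library size after TMM scaling (a correction for library composition). Differences are log2 fold changes from edgeR's quasi-likelihood F test, with p-values adjusted over the 17290 genes tested and 0.05 as the threshold. Their standard error (SE) was derived from that test, as the absolute log2 fold change divided by the square root of the F statistic. Throughout, a value followed by ± is such a log2 fold change with its SE, from 2 libraries in each group. YTHDC1 itself stood at 121 and 118 CPM in heat-shocked knockdown cells, 268 and 258 CPM in controls with heat shock, and 213 and 225 CPM in controls without it. Mesenchymal markers such as VIM and SPARC were present, with 6 of the 8 listed tested, whereas the bone matrix gene IBSP and the osteocalcin gene BGLAP were near 0. The 8 summed to 3800 to 4130 CPM in heat-shocked knockdown cells. Their sums were 4280 to 4370 CPM in heat-shocked controls and 4240 to 4260 CPM in unheated controls. Of the 6 tested, 3 rose (50%) and 2 fell (33.3%) with the knockdown, against 27.4% and 27.2% of all genes. The blood markers CD3E and HBB were at 0 in every library. The 4 epithelial markers summed to 36.3 to 38.3 CPM in heat-shocked knockdown cells, against 9.82 to 11.1 CPM in heat-shocked controls and 12.5 to 12.7 CPM in unheated controls, and all 4 rose with the knockdown. The listed blood markers summed to 4.71 to 6.61 CPM in heat-shocked knockdown cells, 18.5 to 22.9 CPM in heat-shocked controls and 15.5 to 16.3 CPM in unheated controls. The part of these marker shifts in the results below was not tested.

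Of the 50 genes, 49 passed the filter on low counts. NUSAP1, a spindle-binding protein, did not: it had 6 and 4 counts in heat-shocked knockdown cells, 2 and 1 in controls with heat shock, and 1 and 0 in controls without it. PRC1, which bundles the microtubules of the central spindle, passed with 83 and 88 counts in heat-shocked knockdown cells, 63 and 65 in controls with heat shock, and 73 and 79 in controls without it. A further row without a symbol lies inside PRC1 on the same strand and held between 85 and 115 counts, so how PRC1 reads were divided is uncertain. Whether NUSAP1 or PRC1 reads were assigned elsewhere was not tested. Several others overlap a neighbouring gene (KIF15, CCNA2, KIF20A, CDC25C, ANLN, FOXM1, PKMYT1, PLK1, HMMR and KIF23), and since the strand setting of the counting is not given, their counts may hold some reads of the neighbour.

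Taken as a sum, the 50 genes made up 7576 and 8292 CPM in heat-shocked knockdown cells, 6738 and 6623 CPM in controls with heat shock, and 8447 and 8291 CPM in controls without it. Both heat-shocked control libraries lay below all 4 others, and knockdown replicate 2 matched unheated replicate 2 to within 1 CPM. In these bulk samples, fewer cells in G2 or mitosis and less of each messenger RNA per cell cannot be told apart. In the knockdown, replicate 2 was above replicate 1 for 47 of the 49 genes, by a median of 0.11 on the log2 scale, while 49.7% of all genes lay higher in replicate 2. The corresponding counts were 16 of 49 in heat-shocked controls and 19 of 49 in unheated controls.

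**Figure D1:**
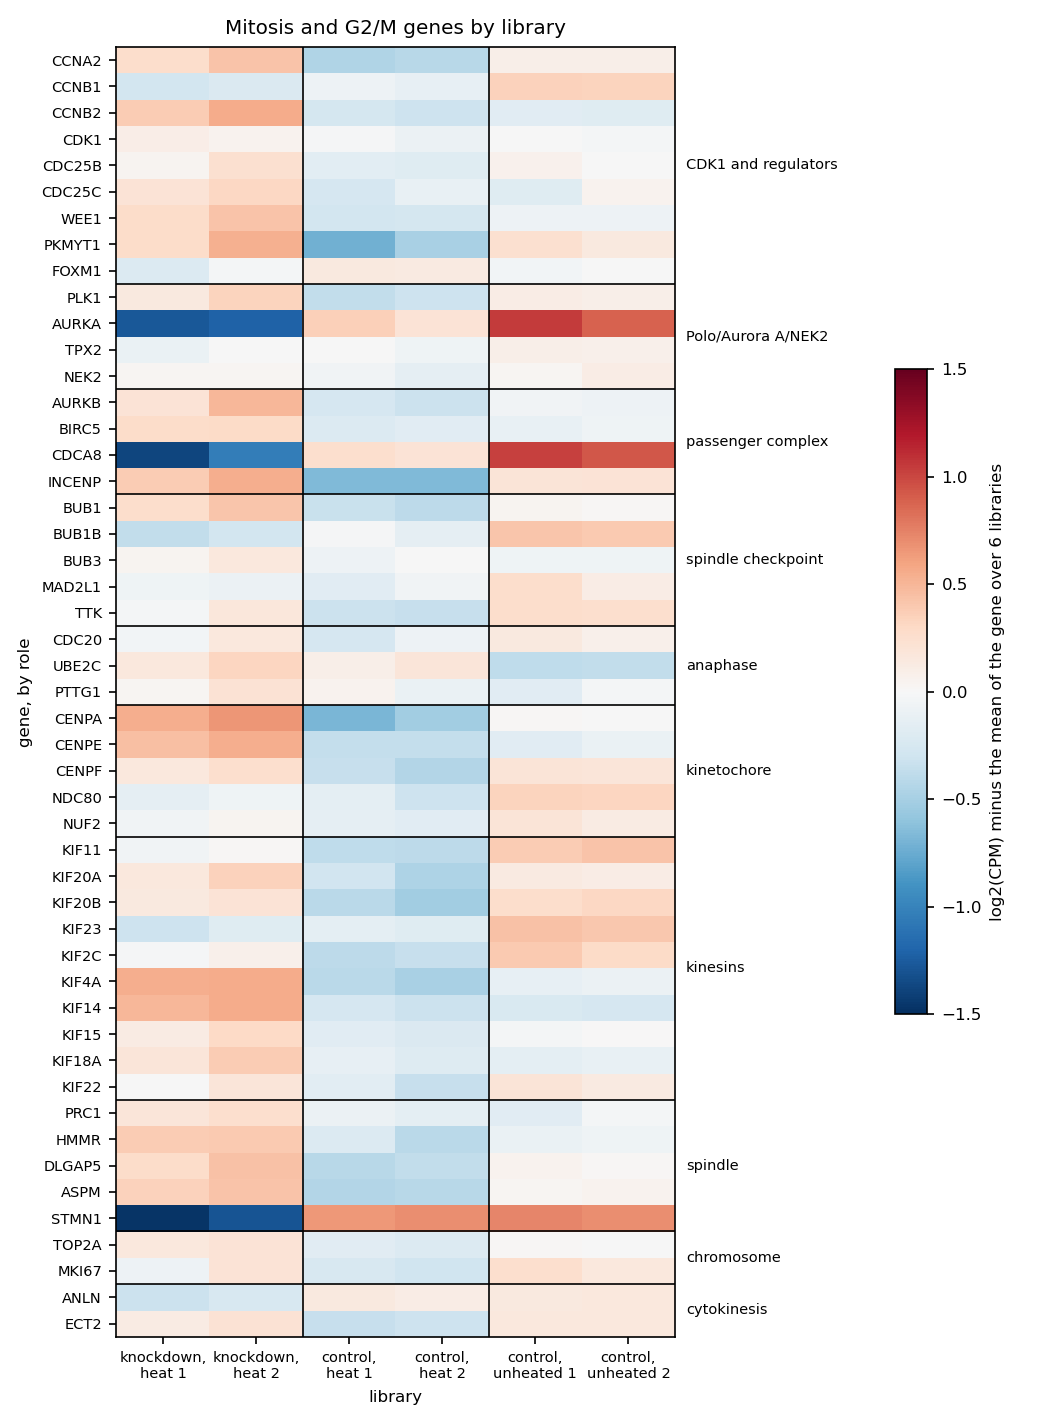
Heat map of the level of each tested mitotic gene in each of the 6 libraries, as log2 CPM relative to that gene's mean over the libraries, with genes in rows by role and libraries in columns (heat-shocked knockdown, heat-shocked control, unheated control). Most rows are low in the 2 heat-shocked control libraries, and STMN1, AURKA and CDCA8 are low in the 2 knockdown libraries.

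Heat shock lowered most of these genes in control cells. Of the 49 tested, 36 fell and 2 rose (UBE2C and FOXM1), 10 of those that fell did so by at least 1.5-fold, and 0 rose by as much. Among all genes tested, 23.3% fell and 20.6% rose, with 8.88% falling and 9.54% rising by at least 1.5-fold. The median log2 fold change was -0.32 over the 49 and -0.03 over all genes. The largest falls were in INCENP, KIF11, PKMYT1, CDCA8 and KIF20B, each to between 55.2% and 59.7% of the unheated level. Both heat-shocked control libraries lay below both unheated ones for 39 of the 49 genes, above them for 2, and overlapped them for 8, against 38.8% below and 33.4% above over all genes. With scaling to library size alone, 1 member was called higher and 39 lower, and the split over all genes was 2932 higher and 5092 lower, against 3559 and 4033 with TMM.

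The heat shock calls of AURKB, KIF15, NEK2 and WEE1 were lost on leaving out any 1 of the 4 libraries compared, with adjusted p between 0.0542 and 0.28. Leaving out heat-shocked control replicate 2 or either unheated replicate also ended the call of TPX2 (adjusted p 0.137 to 0.286). FOXM1 was no longer called without heat-shocked control replicate 1 (adjusted p = 0.0545), unheated replicate 1 (0.105) or unheated replicate 2 (0.0551). The call of CDC25B was lost when heat-shocked control replicate 2 (adjusted p = 0.061) was left out, or unheated replicate 1 (0.124), and that of HMMR without heat-shocked control replicate 2 (0.294) or unheated replicate 2 (0.0799). The DESeq2 Wald test called 29 members lower and did not call AURKB, CDC25B, HMMR, KIF15, NEK2, TPX2 or WEE1 (DESeq2 adjusted p 0.0896 to 0.291), and FOXM1 was not called with scaling to library size alone (0.127). The other 30 of the 38 calls were made in every one of the 14 alternative analyses.

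YTHDC1 knockdown raised most of the set relative to heat-shocked controls and sharply lowered a few. Of the 49 genes, 33 rose, 18 of them by at least 1.5-fold, and 7 fell (STMN1, AURKA, CDCA8, ANLN, FOXM1, BUB1B and CCNB1), 3 of them by at least 1.5-fold. Among all genes tested, 27.4% rose and 27.2% fell, with 12.8% rising and 13.3% falling by at least 1.5-fold. The median log2 fold change was 0.40 over the 49 and -0.0042 over all genes. The largest rises were in CENPA, INCENP, PKMYT1 and KIF4A, with log2 fold changes between 1.00 and 1.20. STMN1 fell to 24.1% of the heat-shocked control level, AURKA to 34.7% and CDCA8 to 37.2%. Both knockdown libraries lay above both heat-shocked controls for 37 genes, below them for 7, and overlapped them for 5, against 37.8% above and 38.1% below over all genes.

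Of the 40 knockdown calls, 35 were made in all 14 alternative analyses. Leaving out heat-shocked control replicate 1 or knockdown replicate 2 ended the calls of BUB3 (adjusted p 0.205 and 0.175) and CDC20 (0.109 and 0.0523). The call of CCNB1 was lost without heat-shocked control replicate 1 (adjusted p = 0.0733) and that of MKI67 without heat-shocked control replicate 2 (0.0708). CDK1 was no longer called on leaving out knockdown replicate 1 (adjusted p = 0.0867), replicate 2 of the heat-shocked controls (0.276), or either unheated library (0.0589 and 0.0574). Without knockdown replicate 1, 4 more genes were called higher, namely NDC80 (adjusted p = 0.0192), NUF2 (0.028), PTTG1 (0.00313) and UBE2C (0.00472). NDC80 and PTTG1 were also called without heat-shocked control replicate 1 (adjusted p 0.0107 and 0.0304), and KIF23 was called lower without knockdown replicate 2 (0.0116). Other tools ended calls too: the DESeq2 Wald test did not call BUB3 (DESeq2 adjusted p = 0.108) or CDK1 (0.141), and limma voom did not call MKI67 (limma adjusted p = 0.0602). With scaling to library size alone NDC80 (adjusted p = 0.0416) and NUF2 (0.0408) were called higher.

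Heat shock and the knockdown comparison share the heat-shocked control libraries, so the 2 comparisons are not independent, and a fall in 1 with a rise in the other is no separate result. CCNB1, AURKA, CDCA8 and BUB1B were called lower in each comparison. STMN1 and ANLN fell with the knockdown and were not called in heat shock. CCNB2, CDK1, CDC25C, BIRC5, BUB3, KIF14 and KIF18A rose with the knockdown and were not called in heat shock. With scaling to library size alone, CCNB2 (log2 fold change -0.19, adjusted p = 0.0168) and BIRC5 (-0.17, adjusted p = 0.00631) were called lower in heat shock. STMN1 was also called lower there (-0.12), with an adjusted p just under the threshold of 0.05.

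Heat-shocked knockdown cells were then set against unheated controls, which leaves the shared libraries out of the difference. It is no independent check, because in the single fit each log2 fold change is the sum of those of the other comparisons. The heat-shocked controls also still entered the estimate of spread. Here 23 of the 49 genes were higher and 13 lower, against 31.1% in each direction over all genes, with 6 at least 1.5-fold higher and 6 at least 1.5-fold lower, against 17.0% and 17.3%. Both knockdown libraries lay above both unheated ones for 26 genes, below them for 15, and overlapped them for 8, against 40.1% above and 40.0% below over all genes. The median log2 fold change was 0.13. Which direction held more genes rested on 1 library: without knockdown replicate 2, 17 were higher and 18 lower, with a median of 0.049. With scaling to library size alone, 20 were higher and 16 lower, with a median of 0.078. Among the genes above the unheated level were CCNA2, AURKB, INCENP, CENPA, CENPE and KIF4A, and among those below it were CCNB1, AURKA, CDCA8, KIF11, KIF2C and STMN1. The 13 not called were CDK1, CDC25B, FOXM1, NEK2, TTK, CDC20, CENPF, KIF20A, KIF20B, KIF22, PRC1, MKI67 and ECT2. Of the 36 calls, 27 were made in all 14 alternative analyses. The calls of PKMYT1 and PLK1 were lost without knockdown replicate 2 (adjusted p 0.493 and 0.413), unheated replicate 1 (0.0575 and 0.0855) or unheated replicate 2 (0.249 and 0.156). BUB3 was lost without the same 3 libraries (adjusted p 0.0617 to 0.0686), and CDC25C, KIF15 and PTTG1 without knockdown replicate 2 (0.0634 to 0.115) or unheated replicate 1 (0.0523 to 0.208). TPX2 was lost without knockdown replicate 1 (adjusted p = 0.0765) or either unheated library (0.0776 and 0.0575), NUF2 without knockdown replicate 1 (0.129) or unheated replicate 1 (0.169), and TOP2A without unheated replicate 2 (0.0513). MKI67 was called lower than in unheated controls when knockdown replicate 2 was left out, with a log2 fold change of -0.28 (adjusted p = 5.1e-08). So were CDC20 (adjusted p = 0.00744), KIF22 (0.011), FOXM1 (0.000363) and TTK (0.00752), and TTK was also called lower without either heat-shocked control (0.0467 and 0.0439). Without knockdown replicate 1, CDC25B (adjusted p = 0.000617) and KIF20A (0.000457) were called higher than in unheated controls, as was KIF20A without either heat-shocked control (0.0458 and 0.0494). The DESeq2 Wald test did not call CDC25C, NUF2, PKMYT1, PLK1 or TPX2 here (DESeq2 adjusted p 0.0656 to 0.161). Scaling to library size alone ended the calls of BUB3, PKMYT1 and PLK1 (adjusted p 0.0622 to 0.144) and added calls of FOXM1, KIF20B and TTK as lower (0.0139 to 0.0156). MKI67 was called lower with no filter (adjusted p = 0.00226), TTK with limma voom (limma adjusted p = 0.0453), and KIF20A higher with DESeq2 size factors (0.0399).

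**Figure D2:**
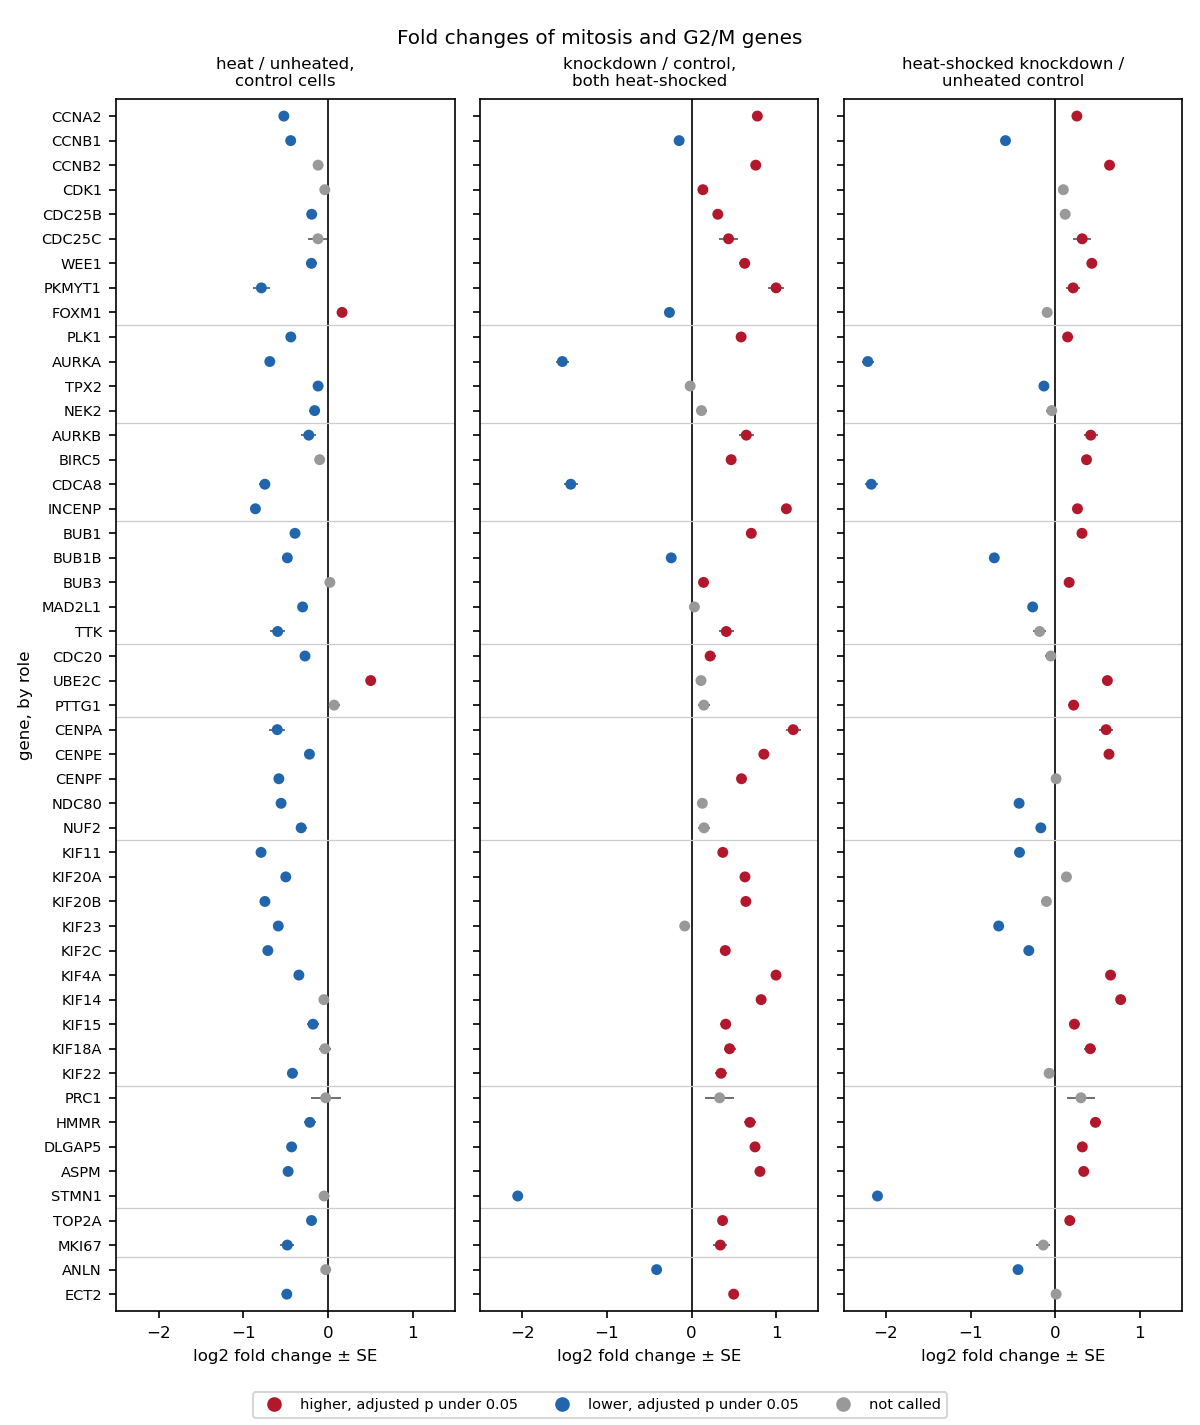
Log2 fold change of each of the 49 tested genes with its SE, in heat-shocked against unheated controls, in heat-shocked knockdown cells against heat-shocked controls, and in heat-shocked knockdown cells against unheated controls. Colour marks genes called higher, called lower or not called at an adjusted p of 0.05. Most points lie left of 0 with heat shock and right of 0 with the knockdown.

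The promoters of some members that rose and of some that fell with the knockdown are shown for the elements that mark G2/M genes. They are examples picked without a stated rule, and do not show how common the elements are among members that rose or fell. CENPE is not shown, although it rose more than CCNB2 (log2 fold change 0.86 against 0.76), and it held no CHR or CCAAT match. Each stretch is the 200 bases before the transcript start in RefSeq on GRCh38.p14, written in the gene's direction, and capitals mark every CHR match (TTTGAA or TTCGAA) and CCAAT match on either strand, so that ATTGG is CCAAT on the other strand. INCENP (chr11:62123811-62124010, plus strand), CENPA (chr2:26785856-26786055, plus strand), KIF4A (chrX:70289904-70290103, plus strand) and CCNB2 (chr15:59104946-59105145, plus strand) rose.
INCENP: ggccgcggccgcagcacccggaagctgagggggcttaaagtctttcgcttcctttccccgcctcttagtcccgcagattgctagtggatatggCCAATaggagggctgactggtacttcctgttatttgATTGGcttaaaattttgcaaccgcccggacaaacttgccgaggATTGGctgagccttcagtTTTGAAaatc
CENPA: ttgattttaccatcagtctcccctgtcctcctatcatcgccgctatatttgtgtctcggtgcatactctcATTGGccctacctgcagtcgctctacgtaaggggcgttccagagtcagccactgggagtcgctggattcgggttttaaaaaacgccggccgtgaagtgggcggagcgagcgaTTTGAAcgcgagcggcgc
KIF4A: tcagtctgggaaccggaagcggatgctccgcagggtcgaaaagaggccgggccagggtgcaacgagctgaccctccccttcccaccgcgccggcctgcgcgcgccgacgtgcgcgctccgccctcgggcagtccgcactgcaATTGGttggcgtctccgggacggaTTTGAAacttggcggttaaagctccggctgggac
CCNB2: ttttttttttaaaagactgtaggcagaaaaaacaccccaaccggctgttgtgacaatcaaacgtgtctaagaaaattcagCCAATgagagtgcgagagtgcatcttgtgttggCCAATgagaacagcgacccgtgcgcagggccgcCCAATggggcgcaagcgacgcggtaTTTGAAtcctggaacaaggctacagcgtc
CDCA8 (chr1:37692316-37692515, plus strand) and STMN1 (chr1:25906881-25907080, minus strand, at the outermost start listed) fell.
CDCA8: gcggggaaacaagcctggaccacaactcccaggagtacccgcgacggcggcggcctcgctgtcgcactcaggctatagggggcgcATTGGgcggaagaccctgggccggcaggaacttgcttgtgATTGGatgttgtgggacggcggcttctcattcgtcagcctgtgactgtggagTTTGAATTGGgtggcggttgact
STMN1: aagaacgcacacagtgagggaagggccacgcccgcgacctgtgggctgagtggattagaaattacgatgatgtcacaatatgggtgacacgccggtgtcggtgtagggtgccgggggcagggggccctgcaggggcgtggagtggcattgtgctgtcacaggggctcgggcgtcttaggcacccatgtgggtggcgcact
In CDCA8 the CHR match and a CCAAT match overlap, as TTTGAATTGG. No capitals stand in the STMN1 stretch, which says only that these letters are not in this window.

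Over a window of 250 bases before to 50 after the start, 41 of the 50 genes had an entry. TPX2, BUB3, PKMYT1, TTK, UBE2C, BIRC5, FOXM1, WEE1 and AURKA had none. A CHR match was found in 30 of the 41 (73.2%), against 16.7% of all 27305 promoters. CCAAT was found in 31 (75.6%), against 35.7%, and in at least 2 copies in 19 (46.3%), against 11.3%. Both elements stood in 25 of the 41 (61%), against 6.63% of all promoters. The core of the heat shock element, GAANNTTC, was in 3 (7.32%), against 6.85%, and an E2F motif (TTTGGCGC or TTTCCCGC) in 4 (9.76%), against 2.31%. In MKI67 a CHR match and a GAANNTTC match overlap. Of the 28 genes with an entry that rose with the knockdown, 21 held CHR and 23 held CCAAT. Among those that rose, CENPE, KIF2C, CDC25B and CDC25C held neither, and CCNA2, AURKB and KIF20A held CCAAT without CHR. Of the 5 with an entry that fell, 3 held CHR and 2 held CCAAT, and STMN1 alone held neither. Of the 7 with an entry that were tested and not called, 5 held CHR and 5 held CCAAT. These matches are descriptions of sequence and do not show binding. They are given for the outermost listed start only. CDC25B and CDC25C had 4 listed starts each, STMN1 had 3 and AURKB had 2. A gene without a match lacks only these letters in this window, and other forms of the elements were not searched.

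The genes that start mitosis come first. Cyclin A2 (CCNA2), which carries cells through S phase and G2, dipped with heat shock and passed the unheated level with the knockdown. CCNA2 had 169.9 and 190.4 CPM in heat-shocked knockdown cells, 104 and 106 CPM in controls with heat shock, and 150.4 and 151 CPM in controls without it. The 2 heat-shocked control libraries lay below the other 4, and the knockdown libraries above all others (-0.52 ± 0.05, adjusted p = 2.87e-08 in heat shock, 0.78 ± 0.05, adjusted p = 1.61e-11 in the knockdown). The B-type cyclins parted from each other. CCNB1, the main partner of CDK1, fell in both comparisons. The libraries held 217 and 226 CPM of CCNB1 with heat shock and knockdown, 248 and 241 CPM with heat shock and the control reagent, and 333 and 331 CPM in unheated controls. Its groups stood in steps without overlap (-0.44 ± 0.04, adjusted p = 1.49e-08 in heat shock, -0.15 ± 0.05, adjusted p = 0.00821 in the knockdown). CCNB2, another B-type cyclin found at the Golgi, was not called in heat shock (-0.12 ± 0.06, adjusted p = 0.133) and rose with the knockdown. Heat-shocked knockdown cells held 111 and 125 CPM of CCNB2, against 70.8 and 68.7 CPM in the heat-shocked and 76 and 75 CPM in the unheated controls. Both knockdown libraries were the highest of the 6 (log2 fold change 0.76 ± 0.06, adjusted p = 1.27e-10).

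CDK1, the kinase that drives mitosis, moved little. CDK1 had 135 and 131 CPM in heat-shocked knockdown cells, 124 and 118 CPM in controls with heat shock, and 125 and 123 CPM in controls without it. The heat-shocked and unheated controls overlapped, with a log2 fold change of -0.037 ± 0.05 (adjusted p = 0.582), and the knockdown difference was 0.13 ± 0.05 (adjusted p = 0.0261). The inhibitory kinases that hold CDK1 in check changed more. PKMYT1, which phosphorylates CDK1 at membranes, fell with heat shock to 58% of the unheated level. The libraries held 40.5 and 48.7 CPM of PKMYT1 with heat shock and knockdown, 20.5 and 24.1 CPM with heat shock and the control reagent, and 39.8 and 37.2 CPM in unheated controls. The knockdown libraries were the highest of the 6, and both heat-shocked controls lay far below the rest (-0.79 ± 0.10, adjusted p = 4.64e-07 in heat shock, 1.00 ± 0.10, adjusted p = 6.1e-09 in the knockdown). WEE1, the nuclear inhibitory kinase, had knockdown log2 fold changes of 0.63 ± 0.06 (adjusted p = 8.8e-09) against heat-shocked controls and 0.43 ± 0.06 (adjusted p = 1.19e-06) against unheated ones. The phosphatases CDC25B and CDC25C, which activate CDK1, rose with the knockdown by 0.31 ± 0.06 (adjusted p = 0.000103) and 0.44 ± 0.11 (adjusted p = 0.0017) on the log2 scale. FOXM1, the transcription factor of G2/M genes, went against most of this role. Heat-shocked knockdown cells held 223 and 253 CPM of FOXM1, against 287 and 284 CPM in the heat-shocked and 252 and 257 CPM in the unheated controls. Its heat-shocked control libraries were the highest of the 6 (0.17 ± 0.05, adjusted p = 0.00921 in heat shock, -0.26 ± 0.05, adjusted p = 0.000127 in the knockdown).

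Polo-like kinase 1 (PLK1), which acts at centrosomes and kinetochores, followed the main pattern. PLK1 had 171 and 195 CPM in heat-shocked knockdown cells, 119 and 124 CPM in controls with heat shock, and 166 and 164 CPM in controls without it. The heat-shocked controls lay below both other groups (-0.44 ± 0.06, adjusted p = 6.42e-07 in heat shock, 0.59 ± 0.06, adjusted p = 3.93e-09 in the knockdown). Aurora A (AURKA), which matures centrosomes and builds the spindle, did not. The libraries held 23.4 and 24.4 CPM of AURKA with heat shock and knockdown, 72.6 and 65.5 CPM with heat shock and the control reagent, and 117 and 105 CPM in unheated controls. The 3 groups did not overlap, and the knockdown left 34.7% of the heat-shocked control level (log2 fold change -1.53 ± 0.08, adjusted p = 6.01e-14) and 21.5% of the unheated one. TPX2, which activates Aurora A on the spindle, was not called in the knockdown (-0.016 ± 0.05, adjusted p = 0.792), and NEK2, a centrosome kinase, was not either (0.12 ± 0.06, adjusted p = 0.128).

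The chromosomal passenger complex joins Aurora B (AURKB) to INCENP, survivin (BIRC5) and borealin (CDCA8), and corrects faulty attachments of chromosomes to the spindle. Its messenger RNAs did not move as a unit: 3 rose with the knockdown (75%) and CDCA8 fell (25%), against 27.4% and 27.2% of all genes. INCENP, the scaffold, showed the largest fall of all the members in heat shock. INCENP had 122 and 136 CPM in heat-shocked knockdown cells, 59.5 and 59.4 CPM in controls with heat shock, and 107 and 108 CPM in controls without it. Heat-shocked controls stood at 55.2% of the unheated level (-0.86 ± 0.06, adjusted p = 1.98e-11), and the knockdown raised it by 1.12 ± 0.06 (adjusted p = 9.7e-14) on the log2 scale. CDCA8, which helps bring the complex to centromeres, stepped down in both comparisons. The libraries held 22.9 and 28.8 CPM of CDCA8 with heat shock and knockdown, 70.8 and 68.6 CPM with heat shock and the control reagent, and 121 and 113 CPM in unheated controls. The groups did not overlap, with -0.75 ± 0.06 (adjusted p = 1.34e-09) in heat shock and -1.43 ± 0.08 (adjusted p = 3.21e-13) in the knockdown. AURKB, the kinase, was highest in the knockdown. Heat-shocked knockdown cells held 41.2 and 50.1 CPM of AURKB, against 29.8 and 28.5 CPM in the heat-shocked and 34.4 and 33.7 CPM in the unheated controls. Its 2 knockdown libraries differed by more than either control pair (knockdown log2 fold change 0.65 ± 0.09, adjusted p = 8.23e-07). BIRC5 rose by 0.47 ± 0.05 (adjusted p = 1.2e-08) with the knockdown and was not called in heat shock (-0.10 ± 0.05, adjusted p = 0.107).

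The spindle assembly checkpoint delays anaphase until every kinetochore is attached. Of its 5 genes, 4 fell with heat shock (80%), against 23.3% of all genes. With the knockdown 3 rose (60%) and 1 fell (20%), against 27.4% and 27.2% of all genes. The share that fell with the knockdown was thus near that of all genes. BUB1, the kinase that gathers checkpoint proteins at kinetochores, rose most. BUB1 had 204 and 225 CPM in heat-shocked knockdown cells, 134 and 129 CPM in controls with heat shock, and 174 and 171 CPM in controls without it. All 3 groups were apart, with knockdown highest (0.71 ± 0.05, adjusted p = 3.8e-11 in the knockdown). BUB1B, which encodes BubR1 of the mitotic checkpoint complex, fell in both comparisons. The libraries held 63.7 and 68 CPM of BUB1B with heat shock and knockdown, 81.1 and 74.6 CPM with heat shock and the control reagent, and 109 and 108 CPM in unheated controls. Here the knockdown libraries were the lowest of the 6 (-0.48 ± 0.06, adjusted p = 1.73e-07 in heat shock, -0.24 ± 0.06, adjusted p = 0.00153 in the knockdown). TTK, the MPS1 kinase, showed the largest heat shock fall of this role. Heat-shocked knockdown cells held 28.5 and 32.8 CPM of TTK, against 23.2 and 22.9 CPM in the heat-shocked and 34.9 and 34.6 CPM in the unheated controls. The heat-shocked controls were lowest and the unheated ones highest (-0.59 ± 0.09, adjusted p = 3.89e-06 in heat shock, 0.41 ± 0.09, adjusted p = 0.000365 in the knockdown). MAD2L1, the MAD2 protein, was lower in knockdown cells than in unheated controls (-0.27 ± 0.06, adjusted p = 0.000317) and was not called against heat-shocked ones (0.034 ± 0.06, adjusted p = 0.655).

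Of the 3 anaphase genes, CDC20 fell with heat shock, UBE2C rose and PTTG1 was not called. CDC20, the mitotic activator of the APC/C, had overlapping knockdown and unheated libraries. CDC20 had 222 and 254 CPM in heat-shocked knockdown cells, 192 and 216 CPM in controls with heat shock, and 253 and 240.3 CPM in controls without it. The heat-shocked controls were below both (-0.27 ± 0.06, adjusted p = 0.00283 in heat shock, 0.22 ± 0.07, adjusted p = 0.00951 in the knockdown). UBE2C, a ubiquitin-conjugating enzyme that works with the APC/C, was higher with heat than without. The libraries held 102 and 114 CPM of UBE2C with heat shock and knockdown, 96.9 and 103 CPM with heat shock and the control reagent, and 70.4 and 70.6 CPM in unheated controls. All 4 heat-shocked libraries, knockdown and control, lay above both unheated ones (0.51 ± 0.06, adjusted p = 2.18e-07 in heat shock, 0.11 ± 0.06, adjusted p = 0.106 and not called in the knockdown). PTTG1, securin, was not called in heat shock (0.073 ± 0.07, adjusted p = 0.423) or in the knockdown (0.15 ± 0.07, adjusted p = 0.0788).

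All 5 centromere and kinetochore genes fell with heat shock, against 23.3% of all genes. With the knockdown 3 of them rose (60%), against 27.4% of all genes. CENPA, the histone variant that marks the centromere, had the largest rise with the knockdown of any of the 49 genes. CENPA had 37 and 39.9 CPM in heat-shocked knockdown cells, 15.7 and 17.7 CPM in controls with heat shock, and 25.5 and 25.1 CPM in controls without it. The 3 groups were apart, with heat-shocked controls lowest (-0.60 ± 0.09, adjusted p = 1.38e-05 in heat shock, 1.20 ± 0.09, adjusted p = 6.28e-11 in the knockdown). CENPE, a kinetochore motor, was highest in the knockdown. The libraries held 241 and 255 CPM of CENPE with heat shock and knockdown, 137 and 137 CPM with heat shock and the control reagent, and 156 and 163 CPM in unheated controls. It was 0.86 ± 0.05 (adjusted p = 3.74e-13) above heat-shocked and 0.64 ± 0.05 (adjusted p = 3e-11) above unheated controls on the log2 scale. CENPF, a large kinetochore protein, had a knockdown level whose range enclosed that of unheated controls, with a difference of 0.011 ± 0.05 (adjusted p = 0.848) from them. NDC80 and NUF2, partners in the complex that grips microtubules, stayed below the unheated level in the knockdown (-0.43 ± 0.05, adjusted p = 3.41e-07 and -0.17 ± 0.06, adjusted p = 0.0225) and were not called against heat-shocked controls (0.13 ± 0.06, adjusted p = 0.0633 and 0.15 ± 0.07, adjusted p = 0.0614).

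The 10 mitotic kinesins, motors that slide and shorten spindle microtubules, mostly rose with the knockdown. Of them 9 rose (90%), against 27.4% of all genes, and KIF23 was not called (-0.08 ± 0.05, adjusted p = 0.179). With heat shock 8 fell (80%), 4 of them by at least 1.5-fold, against 23.3% and 8.88% of all genes. KIF11 (Eg5), which pushes spindle poles apart, fell most. KIF11 had 106 and 111 CPM in heat-shocked knockdown cells, 84.7 and 83.9 CPM in controls with heat shock, and 144 and 148 CPM in controls without it. The knockdown libraries stood between the heat-shocked and unheated controls (-0.79 ± 0.05, adjusted p = 5.17e-12 in heat shock, 0.37 ± 0.05, adjusted p = 2.22e-06 in the knockdown). KIF4A, a chromosome-bound kinesin that works with PRC1, passed the unheated level. The libraries held 190.2 and 193 CPM of KIF4A with heat shock and knockdown, 98.8 and 93 CPM with heat shock and the control reagent, and 120.1 and 123 CPM in unheated controls. All 3 groups were apart (-0.34 ± 0.05, adjusted p = 6.49e-06 in heat shock, 1.00 ± 0.05, adjusted p = 4.67e-14 in the knockdown). KIF14, a motor of cytokinesis, was not called in heat shock (-0.048 ± 0.06, adjusted p = 0.548) but was highest in the knockdown. Heat-shocked knockdown cells held 105 and 109.9 CPM of KIF14, against 62.5 and 59.3 CPM in the heat-shocked and 63.5 and 62.3 CPM in the unheated controls. It was 0.77 ± 0.05 (adjusted p = 1.35e-11) above unheated controls on the log2 scale, the largest such rise among the 49. KIF2C (MCAK), which depolymerizes microtubules, showed the same order of groups as KIF11, with -0.71 ± 0.05 (adjusted p = 3.51e-11) in heat shock and 0.40 ± 0.05 (adjusted p = 5.26e-07) in the knockdown.

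Among spindle-binding proteins, ASPM, HMMR and DLGAP5 fell with heat shock and rose with the knockdown. ASPM, which focuses spindle poles, led both changes among these. ASPM had 172 and 182 CPM in heat-shocked knockdown cells, 100.1 and 102 CPM in controls with heat shock, and 139 and 141 CPM in controls without it. The heat-shocked controls were lowest and the knockdown highest (-0.47 ± 0.05, adjusted p = 4.21e-08 in heat shock, 0.81 ± 0.05, adjusted p = 1.79e-12 in the knockdown). STMN1, stathmin, which sequesters tubulin and destabilizes microtubules, showed the largest change of any member with the knockdown. The libraries held 104 and 118 CPM of STMN1 with heat shock and knockdown, 454 and 468 CPM with heat shock and the control reagent, and 483 and 469 CPM in unheated controls. The heat-shocked controls lay just below the unheated ones (-0.046 ± 0.05, adjusted p = 0.472 in heat shock), and both knockdown libraries were far below them. The knockdown left 24.1% of the heat-shocked control level (log2 fold change -2.05 ± 0.05, adjusted p = 3.32e-19).

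TOP2A, the topoisomerase that untangles chromosomes, and MKI67, the Ki-67 protein that coats them, both fell with heat shock and rose with the knockdown. TOP2A had 687 and 710.4 CPM in heat-shocked knockdown cells, 548 and 536 CPM in controls with heat shock, and 626 and 614 CPM in controls without it. The 3 groups of TOP2A did not overlap (-0.19 ± 0.04, adjusted p = 0.000687 in heat shock, 0.37 ± 0.04, adjusted p = 1.19e-07 in the knockdown). The libraries held 933 and 1128 CPM of MKI67 with heat shock and knockdown, 829 and 799 CPM with heat shock and the control reagent, and 1173 and 1098 CPM in unheated controls. The knockdown libraries of MKI67 lay far apart, and 1 of them lay within the unheated range (-0.48 ± 0.08, adjusted p = 0.00139 in heat shock, 0.34 ± 0.08, adjusted p = 0.00726 in the knockdown). Of the cytokinesis genes, ANLN, the anillin that scaffolds the contractile ring, fell with the knockdown and was not called in heat shock. Heat-shocked knockdown cells held 197 and 208 CPM of ANLN, against 273 and 266 CPM in the heat-shocked and 273 and 276 CPM in the unheated controls. Its control libraries overlapped (-0.026 ± 0.04, adjusted p = 0.673 in heat shock, -0.41 ± 0.05, adjusted p = 5.05e-08 in the knockdown). ECT2, which activates RhoA for the ring, went the other way. ECT2 had 139 and 148 CPM in heat-shocked knockdown cells, 100.3 and 103 CPM in controls with heat shock, and 143 and 142 CPM in controls without it. The heat-shocked controls were lowest, and the knockdown differed from unheated controls by 0.012 ± 0.05 (adjusted p = 0.85) (-0.49 ± 0.05, adjusted p = 2.85e-08 in heat shock, 0.50 ± 0.05, adjusted p = 1.35e-08 in the knockdown).

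**Figure D3:**
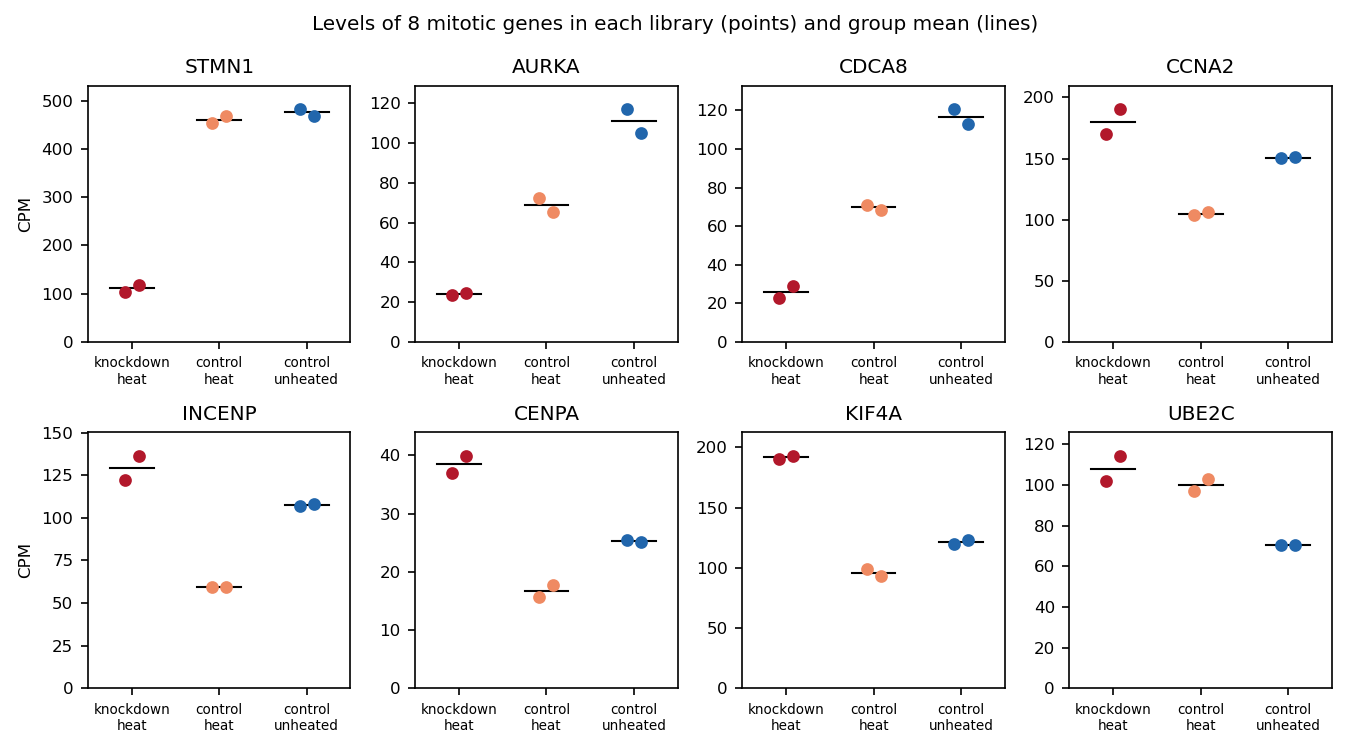
Level in CPM (vertical axes from 0) of 8 mitotic genes in each library (points) with the mean of each group of 2 (lines), for heat-shocked knockdown cells, heat-shocked controls and unheated controls. STMN1, AURKA and CDCA8 are lowest in the knockdown, while INCENP and CENPA are lowest in heat-shocked controls.

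Compared per kilobase of the deposited gene length, the mean level in unheated controls was highest for CCNB1 (136.6 CPM per kb), CDC20 (122.6) and TOP2A (97.2), and lowest for CDC25C (4.99), PRC1 (0.876) and NUSAP1 (0.00874). STMN1 ranked 33 of the 50 in knockdown cells and 6 in heat-shocked and in unheated controls. AURKA ranked 46 in knockdown cells, 24 in heat-shocked controls and 16 in unheated controls, and CDCA8 ranked 43, 16 and 11 in the same groups. CCNB1 ranked 3, 2 and 1, and CDC20 ranked 1, 1 and 2. These ranks are of levels and carry no test. The low levels of PRC1 and NUSAP1 are uncertain, since whether their reads were assigned elsewhere was not tested.

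**Figure D4:**
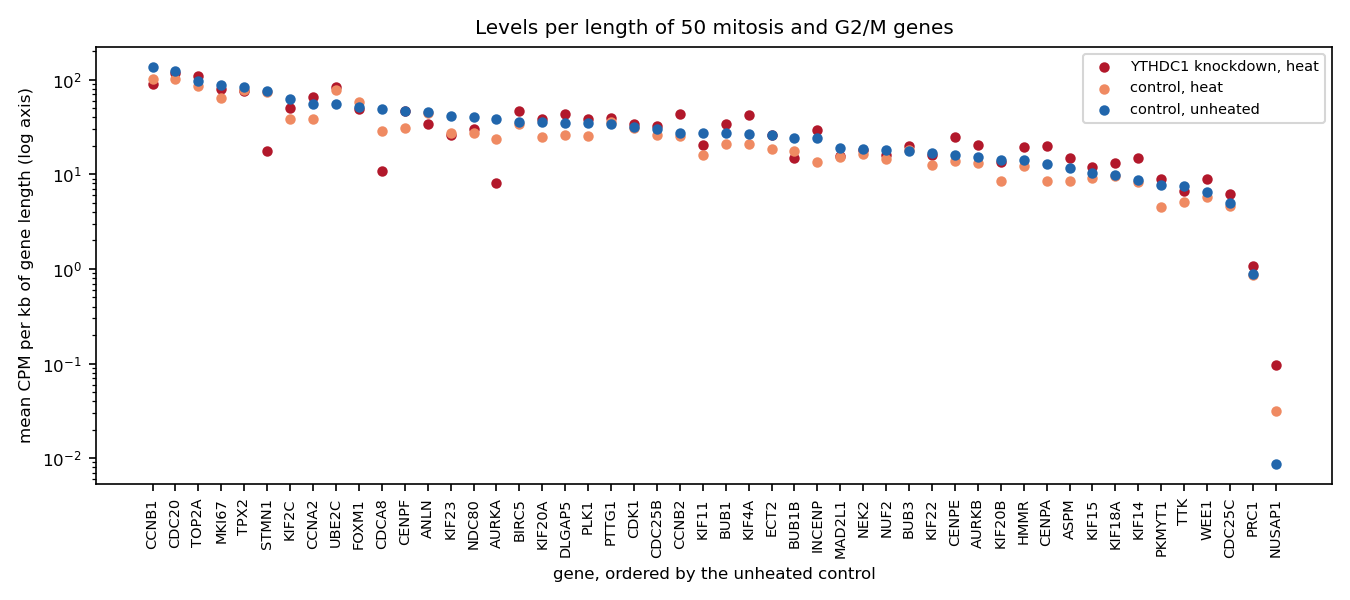
Mean level of each of the 50 genes in CPM per kb of gene length on a log axis, ordered by the unheated control, with 1 marker for each group of 2 libraries (heat-shocked knockdown, heat-shocked control, unheated control). STMN1, AURKA and CDCA8 lie far below their neighbours in the knockdown, and NUSAP1 and PRC1 are lowest in all groups. Whether reads of NUSAP1 or PRC1 were assigned elsewhere was not tested.

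Of 112 other genes of the mitotic pathway, taken from lists of complexes, 59 fell (52.7%) and 13 rose (11.6%) with heat shock (median log2 fold change -0.17), against 23.3% and 20.6% of all genes. With the knockdown 51 rose (45.5%) and 31 fell (27.7%), with a median of 0.08, against 27.4% and 27.2% of all genes. In the knockdown against unheated controls 36 were higher (32.1%) and 48 lower (42.9%), with a median of -0.05, against 31.1% in each direction, so the share that was higher was near that of all genes. Of 25 other kinetochore and checkpoint genes, 15 fell (60%) and 1 rose (4%) with heat shock. Among those that fell was HJURP, the CENPA chaperone (-1.18 ± 0.06, adjusted p = 1.77e-13). With the knockdown 13 of these rose (52%) and 6 fell (24%), with ZW10, a checkpoint protein, at 1.03 ± 0.08 (adjusted p = 8.58e-11). Of 16 other regulators of mitotic entry, 8 fell (50%) and 3 rose (18.8%) with heat shock, and 10 rose (62.5%) and 4 fell (25%) with the knockdown. Cyclin F (CCNF), which marks proteins for destruction in G2, led both, at -1.25 ± 0.07 (adjusted p = 4.12e-13) and 1.38 ± 0.07 (adjusted p = 5.87e-14). CCNF had 85.2 and 97.1 CPM in heat-shocked knockdown cells, 34.6 and 35.2 CPM in controls with heat shock, and 85.5 and 80.2 CPM in controls without it. Its knockdown and unheated libraries overlapped, and both heat-shocked controls were far lower.

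Of 23 centrosome and spindle genes, 15 fell (65.2%) and 2 rose (8.7%) with heat shock, and 11 rose (47.8%) and 8 fell (34.8%) with the knockdown. Among all genes, 23.3% fell and 20.6% rose with heat shock, and 27.4% rose and 27.2% fell with the knockdown. The 3 largest changes of the centrosome and spindle genes with the knockdown were in augmin, the complex that branches spindle microtubules. HAUS1 stood at -2.01 ± 0.12 (adjusted p = 1.01e-12), HAUS6 at -1.16 ± 0.08 (adjusted p = 1.74e-11) and HAUS8 at -0.97 ± 0.14 (adjusted p = 1.94e-06). The libraries held 5.56 and 5.64 CPM of HAUS1 with heat shock and knockdown, 22.6 and 22.4 CPM with heat shock and the control reagent, and 24.1 and 24.9 CPM in unheated controls. The 4 control libraries of HAUS1 were alike in level, and both knockdown libraries were far lower. Of 20 condensin and cohesin genes, which shape and hold chromosomes, 9 fell (45%) and 3 rose (15%) with heat shock. With the knockdown 8 rose (40%) and 6 fell (30%), the latter near the share of all genes. ESPL1, separase, was among those that rose with the knockdown (1.00 ± 0.08, adjusted p = 1.66e-08). Of 17 APC/C genes, 7 fell (41.2%) and 2 rose (11.8%) with heat shock. With the knockdown 4 rose (23.5%) and 5 fell (29.4%), near the shares of all genes. There FZR1, the late mitotic activator CDH1, and the subunit ANAPC11 led in opposite directions (0.80 ± 0.07, adjusted p = 8.24e-10 and -0.76 ± 0.08, adjusted p = 1.98e-08). Of 11 genes of the MuvB, B-MYB and DREAM complexes, 5 fell (45.5%) and 2 rose (18.2%) with heat shock, the latter near the share of all genes. With the knockdown 5 rose (45.5%) and 2 fell (18.2%). Those that rose included MYBL2, which encodes B-MYB (0.73 ± 0.05, adjusted p = 6.7e-12), and RBL1, which encodes p107 (1.20 ± 0.08, adjusted p = 5.58e-12).

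A list of 30 genes of G1/S and DNA replication served for comparison. With heat shock 20 fell (66.7%) and 4 rose (13.3%), with a median of -0.23, against 36 fallen and 2 risen of the 49 mitotic genes. With the knockdown 7 rose (23.3%) and 13 fell (43.3%), with a median of -0.10, against 33 risen and 7 fallen of the mitotic genes. Among all genes, 23.3% fell and 20.6% rose with heat shock, and 27.4% rose and 27.2% fell with the knockdown. The share of the G1/S list that rose with the knockdown was thus near that of all genes. The difference between the G1/S and mitotic lists was not tested. PCNA, the sliding clamp of DNA polymerase, fell in both, at -1.34 ± 0.05 (adjusted p = 3.4e-16) in heat shock and -1.83 ± 0.07 (adjusted p = 4.08e-16) in the knockdown. PCNA had 22 and 20.6 CPM in heat-shocked knockdown cells, 78.7 and 72.9 CPM in controls with heat shock, and 190.4 and 194 CPM in controls without it. Its groups stood far apart in steps, as those of AURKA and CDCA8 did. RRM2, a ribonucleotide reductase subunit, rose with the knockdown (1.06 ± 0.05, adjusted p = 2.3e-14).

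**Figure D5:**
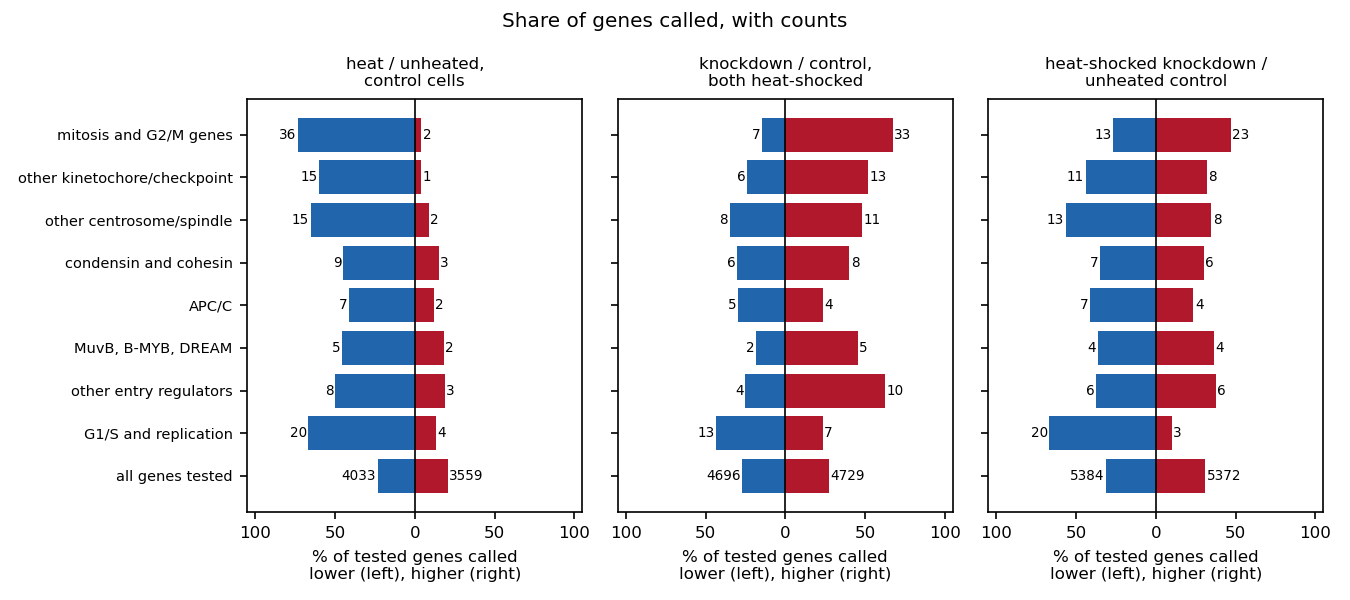
Share of tested genes called lower (bars to the left) and higher (bars to the right), in %, with counts, for the 49 mitotic genes, the other mitosis lists, the G1/S and replication list and all genes, in heat-shocked against unheated controls, in the knockdown against heat-shocked controls, and in the knockdown against unheated controls. The mitotic genes have the longest left bar with heat shock and the longest right bar with the knockdown among these sets. The gene lists were chosen with earlier results of these data known.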

How the data were processed

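RNA-seq was measured in 6 U2OS libraries, 2 in each of 3 groups, with groups taken from the sample labels. The authors deposited raw read counts for each gene, as whole numbers. Per the submitters' processing notes, the genome was GRCh38, and the tools named, with no order or role, were MACS2, R 4.4.0, DESeq2 1.36.0, featureCounts 2.0.2, SAMtools 1.17, HISAT2 2.2.1, Trim Galore 0.6.7 and FastQC 0.11.8. Neither the annotation nor the strandedness of counting nor the handling of multi-mapping reads is given in the sources used here. The immunoprecipitation samples of the series were not analysed here, so no value measures m6A.

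The test was edgeR 4.0.16 in R 4.3.3 (quasi-likelihood F test, robust, TMM scaling, filterByExpr with a minimum count of 10). All 6 libraries entered 1 fit with 3 residual degrees of freedom. Of 63187 genes, 17290 were tested, and p-values were adjusted over them by the Benjamini-Hochberg method with 0.05 as the threshold. The common biological coefficient of variation was 3.69%. The script was tested on simulated data. The chi-square per gene between the libraries of a group was 3.41 in the knockdown, 2.6 in heat-shocked and 1.52 in unheated controls, above sampling noise. No label names separate cultures, and p-values then measure only the spread between libraries, which may be technical.

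Levels are CPM of the TMM-scaled library size, and levels compared between genes were divided by the gene length in the authors' deposited table. Identifiers were paired with symbols, and 521 had none. Promoter sequences are RefSeq's on GRCh38.p14 from 250 bases before to 50 after the start, at the outermost start where several are listed. Alternatives were DESeq2 1.42.0, limma voom (limma 3.58.1), other scalings, no filter, no robust step, only the groups compared, a replicate block, and each library left out in turn. The members and lists were chosen with earlier results of these data known. Values in all 6 libraries are given for the called members with the largest change in their role, for members moving against their role, and for CDK1, CCNB1, PLK1, AURKA, AURKB, MKI67 and TOP2A. From each other list, named genes are among the 3 called genes with the largest change and a mean of at least 5 CPM.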

Additional observations from a re-analysis of the deposited data

How the results depend on the processing

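Over the 14 alternative analyses, 30 of the 38 member calls in heat shock, 35 of 40 in the knockdown and 27 of 36 against unheated controls were made every time. With the DESeq2 Wald test, 2514 of all genes were called lower in heat shock, against 4033 with edgeR, and 29 members, against 36. With scaling to library size alone, 1 member was called higher in heat shock, against 2, and leaving out 1 library gave 1 to 2. The members' median against unheated controls ran from 0.049 without knockdown replicate 2 to 0.21 over the analyses that left out 1 library. The cause of these shifts was not tested. The largest shift of the median of all genes under another scaling was -0.07, with library size alone in heat shock.

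Some uncalled log2 fold changes near 0 changed sign. In heat shock, with 1 library left out, BUB3 ran from -0.017 to 0.059, PRC1 from -0.099 to 0.037, PTTG1 from -0.0049 to 0.15, CDK1 from -0.077 to 0.00045 and KIF18A from -0.075 to 0.0036. With library size alone BUB3 was -0.047, and with only the 2 groups compared PRC1 was 0.0025 and ANLN 0.0030. In the knockdown, with 1 library left out, TPX2 ran from -0.060 to 0.025 and MAD2L1 from -0.021 to 0.081. Against unheated controls CENPF ran from -0.037 to 0.052, ECT2 from -0.035 to 0.051, CDC20 from -0.15 to 0.039 and KIF22 from -0.17 to 0.014. There CENPF was -0.044 and ECT2 -0.044 with library size alone, and they were -0.0018 and -0.0012 with no filter.

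The labels give the groups shared replicate numbers only. Same-numbered libraries did not deviate together, with correlations of 0.022, -0.026 and -0.012 across genes. With the replicate block, 2 members were higher and 35 lower in heat shock, 33 higher and 7 lower in the knockdown, and 23 higher and 13 lower against unheated controls, and only NEK2 in heat shock lost its call (adjusted p = 0.0548). PRC1 and NUSAP1 had the fewest counts of the members, so their values are the least precise. Their levels may also be too low if reads were assigned elsewhere, which was not tested.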
